A study of Rattus norvegicus with 6 samples.

Results

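Antioxidant enzymes remove superoxide and peroxides before they damage proteins, lipids and DNA. The 10 genes described here encode the 3 superoxide dismutases Sod1, Sod2 and Sod3, catalase (Cat), the glutathione peroxidases Gpx1 and Gpx3, the peroxiredoxins Prdx1 and Prdx6, and the reductases Nqo1 and Txnrd1. The rule takes them by name. Each was read from the 1 probe set whose annotation names that gene alone, so all 10 were measured, out of 22093 genes with such a probe set. RNA came from the tendons of Sprague-Dawley rats, a common outbred laboratory strain, 1 week after surgery. The control group had control surgery (3 arrays), the other group had an injured tendon (3 arrays), and animals were put into the groups at random, per the labels. No other genotype, agent or treatment is given for either group, and the sources used here do not give age, sex, which tendon or the kind of injury. The labels name a rat array in the sample titles and a mouse array in the protocol; the probe sets carry rat gene names. The labels call the arrays of a group biological replicates but do not say whether each is 1 animal.

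The dismutases turn superoxide into hydrogen peroxide, Sod1 in the cytosol, Sod2 in mitochondria and Sod3 in the extracellular matrix. Hydrogen peroxide is then broken down by catalase in peroxisomes, by glutathione peroxidases with glutathione, and by peroxiredoxins, most of which draw on thioredoxin. Nqo1 reduces quinones and Txnrd1 keeps thioredoxin reduced; both are classic targets of the transcription factor Nrf2, which binds antioxidant response elements under oxidative stress. After tendon injury, invading phagocytes and damaged mitochondria are known sources of superoxide.

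Signals are on the log2 scale, so 1 unit is a 2-fold change, and a difference is injured minus control. Injured replicates 2 and 3 stood apart: across genes they correlated with the other 4 arrays at r = 0.687 to 0.833, whereas those 4 correlated with one another at r = 0.951 to 0.986. On these 2 arrays the median of probe sets with no gene name, used here as a mark of background, was 6.61 and 6.50, against 5.49 to 5.79 on the others. The median of 1276 olfactory and vomeronasal receptor genes, a class known from sensory tissue, lay 2.11 and 2.03 above the control mean there. This was a larger shift than that of the unnamed probe sets. Standings above background below use the unnamed probe sets alone, since the receptor genes' levels were not compared with them on these 2 arrays. The median of 12 reference genes lay 2.46 and 2.11 below the control mean there, and on injured replicate 1 it lay 0.20 below. The single reference genes ranged from -3.58 to -0.06 on injured replicate 2 and from -3.11 to -0.06 on injured replicate 3, and 1 of them, Gapdh, was at the top of the scale. Injured replicate 1 in turn had a median 4.50 above the control mean for 4 keratinocyte genes, against 0.65 and 0.42 on the other injured arrays. The part of these features in the results below was not tested.

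Gpx1 and Sod3 were the 2 members with every injured array below every control array, with mean differences of -2.95 and -1.76. Cat, Gpx3 and Sod1 were far lower on injured replicates 2 and 3 but above the highest control array on injured replicate 1. Smaller differences were found for Prdx6 (-0.05), Sod2 (-0.11), Nqo1 (-0.22) and Prdx1 (-0.51), and Txnrd1 was the 1 member with a higher mean after injury. No member passed the threshold of an adjusted p of 0.05 in limma over all 22093 genes, and neither did any other gene (0% of genes called). At an unadjusted p under 0.05, 2 of 10 members were lower, Gpx1 and Sod3, against 7.25% of all genes, and 0 were higher, against 4.39%. Groups that did not overlap were found in the same direction for these 2 of 10 members, against 8.00% of all genes lower and 7.09% higher. The median difference of the 10 members was -0.87 and that of all genes was 0.15. That of the 12 reference genes was -1.46, lower than that of the members, and all 12 were below 0. Of these 12, 3 were lower at an unadjusted limma p under 0.05, and 2 had injured arrays all below the control arrays.

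**Figure D1:**
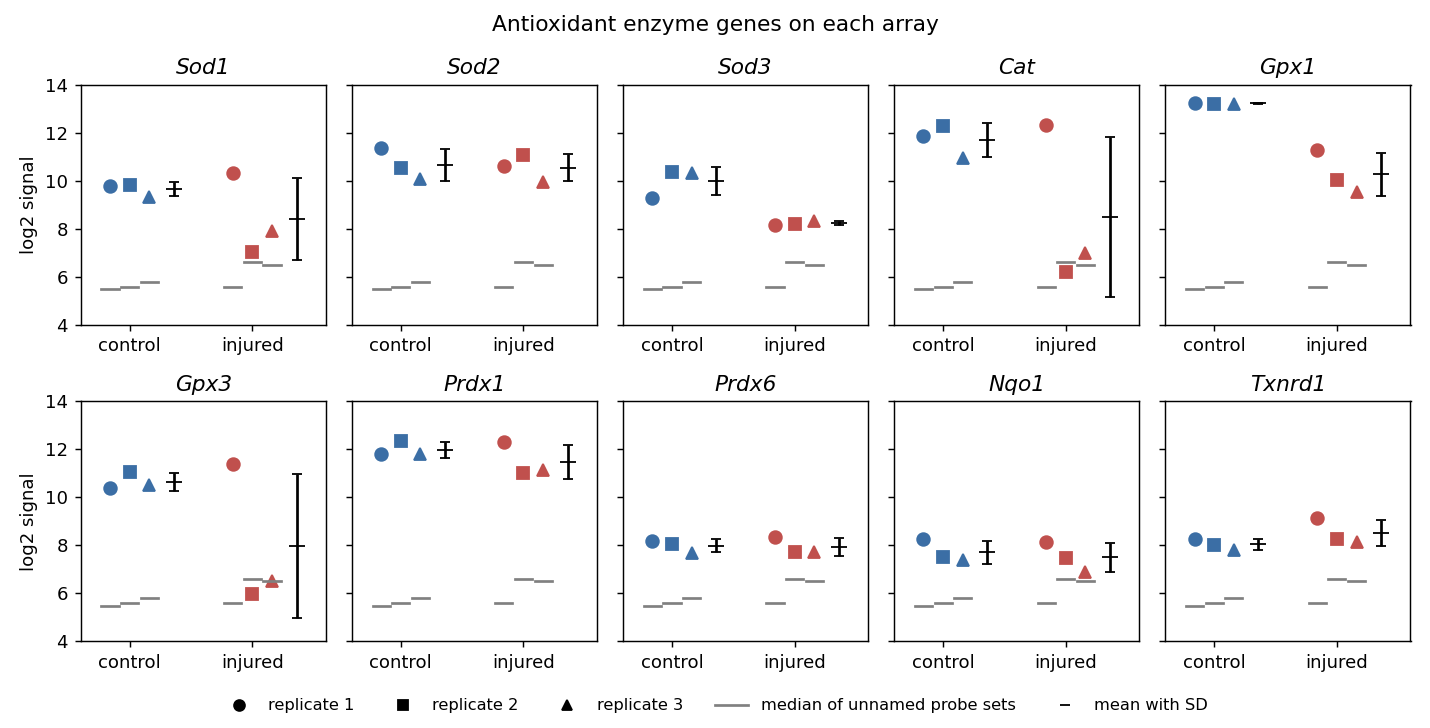
Log2 signal (y axis) of each of the 10 genes on the 3 control (blue) and 3 injured (red) arrays, with marker shape for the replicate number, the group mean with SD in black, and the median of the unnamed probe sets of each array as a grey line. Gpx1 and Sod3 are below all control arrays on every injured array, while Cat, Gpx3 and Sod1 split injured replicate 1 from injured replicates 2 and 3.

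Among the superoxide dismutases, the extracellular enzyme was the one lower on every injured array. Sod3 (probe set TC1400001898.rn.1), which binds to matrix proteoglycans outside the cell, read 9.30, 10.37 and 10.31 on the control arrays and 8.15, 8.22 and 8.33 on the injured arrays, in each case in the order of replicates 1 to 3, as below. The injured arrays lay within 0.18 of one another and the groups did not overlap. Against the control mean Sod3 differed by -1.84, -1.77 and -1.66 on injured replicates 1, 2 and 3. The median reference gene differed by -0.20, -2.46 and -2.11, so on injured replicates 2 and 3 Sod3 lay above it. The control mean was 9.99 ± 0.60 and the injured mean 8.23 ± 0.09 (SD, n = 3 each), which gave a difference of -1.76 (SE 0.32), or 3.39-fold lower, with a 95% interval of -2.56 to -0.96, a limma p of 0.00184 and an adjusted p of 0.322.

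Sod1 (TC1100000221.rn.1), the copper and zinc enzyme of the cytosol, read 9.80, 9.84 and 9.34 on the control arrays and 10.34, 7.04 and 7.89 on the injured arrays. Injured replicate 1 was above all controls and the other injured arrays were below all of them. The difference was -1.24 (SE 0.85, 95% interval -3.35 to 0.87, adjusted p = 0.366), so the spread within the injured group was wider than the difference between the groups. Sod2 (TC0100004435.rn.1), the manganese enzyme of mitochondria, read 11.36, 10.55 and 10.06 on control and 10.60, 11.08 and 9.97 on injured arrays, with overlapping groups. Its difference was -0.11 (SE 0.44, 95% interval -1.19 to 0.98, adjusted p = 0.874), an interval that still holds a 2-fold lower level.

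Of the peroxide-removing enzymes, Gpx1 was lower on all injured arrays and Cat and Gpx3 on 2 of 3. Gpx1 (TC0800001540.rn.1), the glutathione peroxidase of the cytosol and mitochondria, read 13.24, 13.22 and 13.22 on the control arrays and 11.27, 10.04 and 9.53 on the injured arrays. The control arrays were almost identical and every injured array was at least 1.95 below the lowest of them. Its mean went from 13.23 ± 0.01 to 10.28 ± 0.89 (SD, n = 3), a difference of -2.95 (SE 0.45), or 7.71-fold lower, with a 95% interval of -4.07 to -1.83, a limma p of 7.72e-04 and an adjusted p of 0.322. Against the control mean it differed by -1.96, -3.19 and -3.70 on injured replicates 1, 2 and 3, while the median reference gene differed by -0.20, -2.46 and -2.11. On injured replicate 2, 5 of 12 reference genes were lower than Gpx1 by this measure, and on the other injured arrays 0 of 12 were.

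Cat (TC0300003770.rn.1), the heme enzyme of peroxisomes, read 11.86, 12.30 and 10.94 on control arrays and 12.32, 6.19 and 6.98 on injured arrays. Gpx3 (TC1000000614.rn.1), a glutathione peroxidase secreted into plasma and matrix, read 10.38, 11.07 and 10.50 on control arrays and 11.41, 5.97 and 6.50 on injured arrays. Both genes were at their highest on injured replicate 1, by 0.02 for Cat and 0.34 for Gpx3 over the highest control array, and at their lowest on injured replicates 2 and 3. There Cat stood 0.42 below and 0.48 above the median unnamed probe set, and Gpx3 0.64 below and level with it, so the size of their differences is limited by background. Over all arrays the difference was -3.20 for Cat (SE 1.65, 95% interval -7.31 to 0.90, adjusted p = 0.322). For Gpx3 it was -2.69 (SE 1.47, 95% interval -6.34 to 0.96, adjusted p = 0.323).

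**Figure D2:**
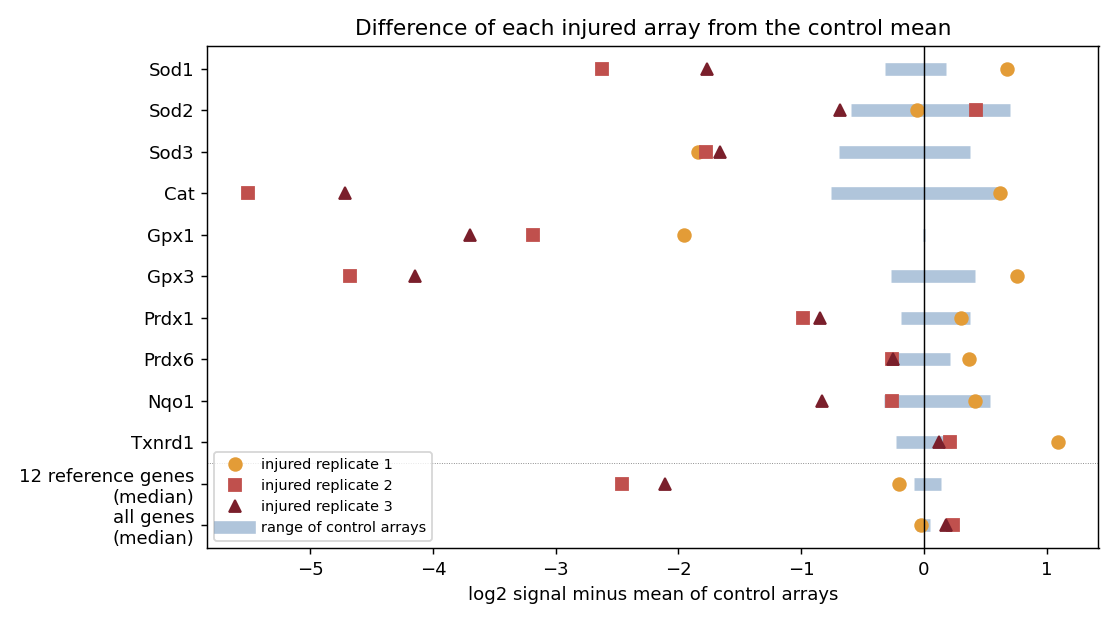
Log2 signal of each injured array minus the mean of the control arrays (x axis) for the 10 genes, with the medians of 12 reference genes and of all genes below the dotted line; blue bars span the 3 control arrays. On injured replicates 2 and 3, Cat, Gpx3 and Gpx1 lie below the median of the reference genes. Sod2, Sod3, Prdx1, Prdx6, Nqo1 and Txnrd1 lie above it there. Sod1 lies below it on injured replicate 2 and above it on injured replicate 3. The place of Sod1 (-2.62) on injured replicate 2 depends on Gapdh, which was at the top of the scale. Without Gapdh the median of the other 11 reference genes there is -2.63.

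The 300 bases around the start of transcription are shown for the pair of genes that split the injured arrays most, Cat and Gpx3, for Gpx1, which was low on all of them, and for Prdx1, which ranked high on every array. Sequences are from RefSeq on assembly GRCr8, 250 bases before and 50 after the start, 5′ to 3′ on the strand of the gene. Capitals mark matches on either strand to 3 motifs. TGACNNNGC is the core of an antioxidant response element. CCAAT is a common promoter element, and the TATA box was searched as TATAAA. Cat lies at chr3:110329477-110329776 on the minus strand, Gpx3 at chr10:39529085-39529384, Gpx1 at chr8:117905212-117905511 and Prdx1 at chr5:135383656-135383955, these on the plus strand.
Cat: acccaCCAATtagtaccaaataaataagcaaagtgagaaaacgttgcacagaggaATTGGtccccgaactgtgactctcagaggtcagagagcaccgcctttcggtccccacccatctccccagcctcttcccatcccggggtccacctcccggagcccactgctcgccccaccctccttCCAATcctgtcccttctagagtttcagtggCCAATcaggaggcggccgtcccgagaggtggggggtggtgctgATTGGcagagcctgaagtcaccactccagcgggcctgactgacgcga
Gpx3: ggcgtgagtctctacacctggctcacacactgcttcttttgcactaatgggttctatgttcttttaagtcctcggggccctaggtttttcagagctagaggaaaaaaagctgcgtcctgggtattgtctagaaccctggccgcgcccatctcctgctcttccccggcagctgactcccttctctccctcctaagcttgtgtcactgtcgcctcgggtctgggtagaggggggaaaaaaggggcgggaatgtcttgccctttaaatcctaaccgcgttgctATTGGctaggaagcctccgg
Gpx1: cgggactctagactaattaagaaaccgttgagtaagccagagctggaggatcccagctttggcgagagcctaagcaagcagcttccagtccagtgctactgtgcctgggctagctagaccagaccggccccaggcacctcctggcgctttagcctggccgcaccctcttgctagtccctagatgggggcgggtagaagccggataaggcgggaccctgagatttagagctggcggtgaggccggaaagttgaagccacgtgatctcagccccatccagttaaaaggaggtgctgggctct
Prdx1: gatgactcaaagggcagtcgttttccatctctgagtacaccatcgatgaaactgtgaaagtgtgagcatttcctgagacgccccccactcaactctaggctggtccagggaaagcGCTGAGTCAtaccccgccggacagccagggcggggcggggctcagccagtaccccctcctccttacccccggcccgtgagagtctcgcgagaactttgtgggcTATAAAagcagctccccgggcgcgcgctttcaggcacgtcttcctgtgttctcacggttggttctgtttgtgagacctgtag

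The Cat window holds 5 CCAAT matches and the Gpx3 window 1, while the Gpx1 window holds none of the 3 motifs. The Prdx1 window holds a TATAAA match at -32 to -27 and a TGACNNNGC match at -135 to -127 on the reverse strand, counted from the start of transcription. That match overlaps the AP-1 motif TGANTCA at -133 to -127. Windows were found for 8 of 10 members, 9 windows in all since Txnrd1 has 2 starts, and TGACNNNGC was found in those of Sod2, Prdx1 and Txnrd1 (at 1 of 2 starts). Of 33469 rat windows of this length, 12.1% hold TGACNNNGC, 7.33% TGANTCA, 37.5% CCAAT and 14.2% TATAAA. A match describes these letters only.

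Prdx1 and Prdx6 were nearer to their control levels, which did not hold for every peroxiredoxin. Outside the members, Prdx2 differed by -0.29, Prdx3 by -2.14, Prdx4 by -1.98 and Prdx5 by 0.61. Prdx1 (TC0500001270.rn.1), a thioredoxin-dependent peroxidase of the cytosol, read 11.80, 12.36 and 11.80 on control arrays and 12.29, 11 and 11.14 on injured arrays. Injured replicate 1 was inside the control range and injured replicates 2 and 3 were below it. The difference was -0.51 (SE 0.40, 95% interval -1.50 to 0.48, adjusted p = 0.409), or 1.42-fold lower. Prdx6 (TC1300001751.rn.1), which takes its electrons from glutathione and also has phospholipase activity, read 8.19, 8.07 and 7.68 on control and 8.35, 7.72 and 7.73 on injured arrays. The groups overlapped, and the difference was -0.05 (SE 0.25, limma adjusted p = 0.906). Its 95% interval of -0.67 to 0.58 holds no 2-fold difference in either direction, for the signal as deposited only. The difference of Prdx6 was -0.57 after centring on array medians and 0.39 with the median of unnamed probe sets as a covariate. Prdx6 at an unchanged level is therefore not shown. It stood 1.11 and 1.23 above the median unnamed probe set on injured replicates 2 and 3, closer to background than its 1.89 to 2.70 on control arrays.

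Neither reductase was called. Txnrd1 (TC0700002394.rn.1), the cytosolic thioredoxin reductase, read 8.27, 8.03 and 7.81 on control arrays and 9.13, 8.25 and 8.16 on injured arrays. Only injured replicate 1 was outside the control range, 0.86 above its top. The difference was 0.48 (SE 0.31, 95% interval -0.29 to 1.25, adjusted p = 0.351), and it was -0.05 when each array was centred on its median. With the median of unnamed probe sets as a covariate it was 1.08 (limma adjusted p = 0.061). Nqo1 (TC1900000518.rn.1), a quinone reductase, read 8.26, 7.50 and 7.39 on control and 8.13, 7.46 and 6.89 on injured arrays, which overlap. Its difference was -0.22 (SE 0.40, 95% interval -1.21 to 0.77, adjusted p = 0.707), and it was 0.85 and 0.39 above the median unnamed probe set on injured replicates 2 and 3.

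**Figure D3:**
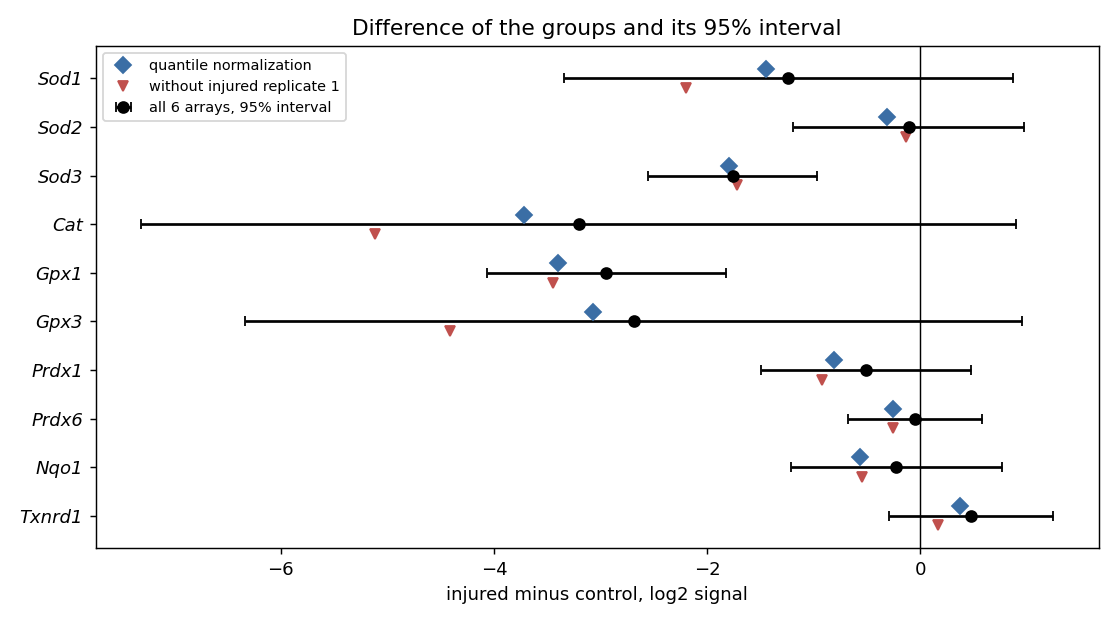
Difference of group means, injured minus control, in log2 signal (x axis) with its 95% interval from limma for each gene (black), beside the difference after quantile normalization (blue) and without injured replicate 1 (red). The intervals of Gpx1 and Sod3 lie below 0, and without injured replicate 1 Cat was at -5.12 and Gpx3 at -4.42.

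Injured replicate 1 decided how many members were called. Without it, with 2 injured arrays against 3 control arrays, 6 of 10 members were lower at an adjusted p under 0.05, against 21.6% of all genes, and 0 of 10 were higher, against 39.1%. The 6 were Gpx1 at -3.44 (SE 0.18, adjusted p = 0.00168), Gpx3 at -4.42 (SE 0.28, adjusted p = 0.00168), Cat at -5.12 (SE 0.47, adjusted p = 0.00230), Sod1 at -2.20 (SE 0.31, adjusted p = 0.00463), Sod3 at -1.72 (SE 0.36, adjusted p = 0.0128) and Prdx1 at -0.92 (SE 0.21, adjusted p = 0.0175). Nqo1 (-0.54, adjusted p = 0.206), Prdx6 (-0.26, adjusted p = 0.268), Txnrd1 (0.17, adjusted p = 0.412) and Sod2 (-0.13, adjusted p = 0.831) were not called. In that comparison 4783 genes were called lower and 8635 higher, and the 2 injured arrays in it are those that stood apart. Of the 12 reference genes, 9 were called lower there and 0 higher. Of 72 further redox genes, described below, 35 were called lower and 7 higher. The members' calls are thus not particular to antioxidant enzymes. Without injured replicate 2 the differences were smaller, at -2.05 for Cat, -1.70 for Gpx3, -0.55 for Sod1 and -0.27 for Prdx1, and 0 members were called. Without control replicate 2, Prdx1 was at -0.32.

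The rank of a gene among the 22093 genes of its own array does not depend on the scale of the array. Prdx1 kept a high rank on all 6 arrays, between the percentiles 96.2 and 98.0, and Sod2 between 92.9 and 98.0. Gpx1 ranked at 98.1 to 98.4 on control and 95 to 96.5 on injured arrays, and by rank too the groups did not overlap. Cat went from 95.5 to 97.1 on control arrays to 97.2, 28.4 and 58.6 on injured replicates 1, 2 and 3. Gpx3 went from 92.4 to 94.8 on control arrays to 95.5, 21.1 and 42.1. Sod3 overlapped by rank, with 86.9 to 93.8 on control and 77.9 to 87.4 on injured arrays. Txnrd1 and Prdx6 ranked higher on every injured array, at 85.4 to 87.4 against 75.7 to 78.7 and at 78.7 to 79.9 against 73.8 to 78.0. These ranks have no test and move with the levels of all other genes.

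**Figure D4:**
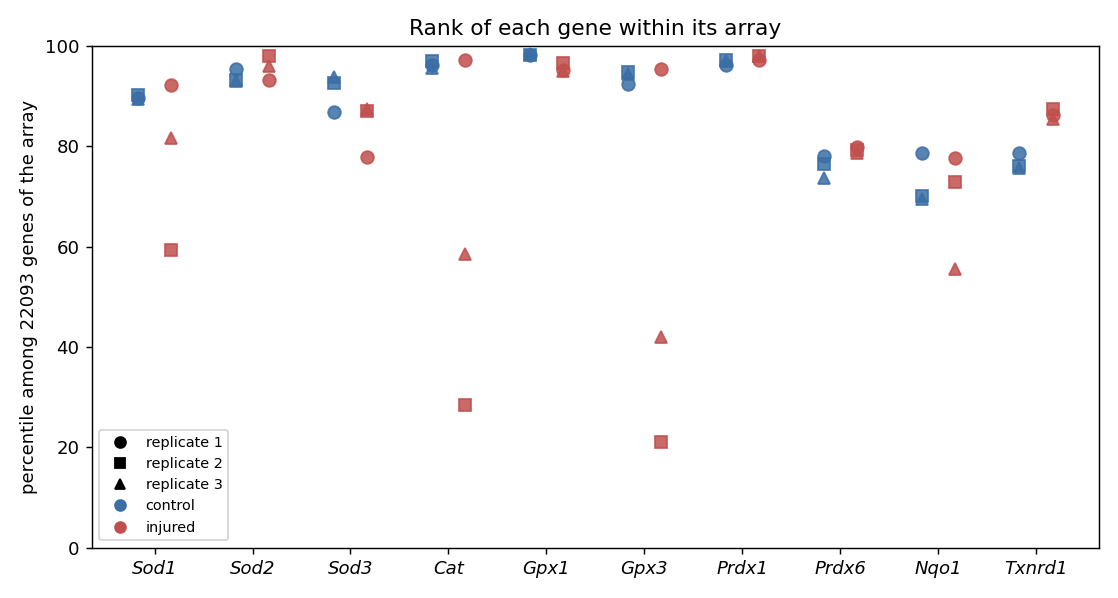
Percentile of each gene among all genes of the same array (y axis) on control (blue) and injured (red) arrays, with marker shape for the replicate number. Cat and Gpx3 are below 60 on injured replicates 2 and 3, whereas Prdx1 is above 96 on every array.

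Other genes of the redox network were read from 6 lists of 76 genes, of which 72 were measured, and none passed the threshold (lowest adjusted p = 0.322). Of these 72 genes, 14 had injured arrays all below the control arrays (19.4%, against 8.00% of all genes) and 7 had them all above (9.72%, against 7.09% of all genes). Of the 72 differences, 53 were below 0 (73.6%, against 38.2% of all genes). Of the 12 reference genes, 100% were below 0 and 16.7% had injured arrays all below the control arrays. With dim genes left out, the median difference of all genes went from 0.15 to -0.06. The part of signal level in these shares was not tested. The lists share the background of the arrays with the members, and no list was set apart from other genes by a test. The 2 brightest genes of each list are named by rule, and any other gene was named after its values were seen.

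In the peroxiredoxin and thioredoxin system, 3 of 14 genes did not overlap lower and 2 of 14 higher (8.00% and 7.09% over all genes), and the median difference was -0.13. Txnip, whose protein binds thioredoxin and blocks it, read 17.43, 17.33 and 17.43 on control arrays and 17.97, 11.95 and 11.49 on injured arrays. This is the split seen for Cat and Gpx3. Txn1, the cytosolic thioredoxin that Txnrd1 reduces, read 12.64, 14.17 and 13.86 on control and 13.97, 12.22 and 10.89 on injured arrays, a difference of -1.20 (SE 0.85).

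For glutathione synthesis, recycling and NADPH supply the median was -0.31 over 10 genes, with 0 of 10 not overlapping lower and 1 of 10 higher (8.00% and 7.09% over all genes). Me1, a cytosolic malic enzyme that makes NADPH, differed by -1.87 (SE 0.96), and Idh1, an isocitrate dehydrogenase that also makes NADPH, by -1.75 (SE 0.91). Both were within the control range on injured replicate 1, at 10.96 for each, and below it on the other injured arrays. The other glutathione peroxidases and transferases had a median of -0.61 over 12 genes, with 2 of 12 not overlapping lower and 1 of 12 higher (8.00% and 7.09% over all genes). Mgst1, a membrane-bound glutathione transferase with peroxidase activity, read 11.83, 14.59 and 11.32 on control and 10.50, 7.50 and 6.35 on injured arrays, a difference of -4.46 (SE 1.35). Mgst2, a relative that also makes leukotriene C4, differed by -0.59 (SE 0.37).

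Nrf2 regulators and further Nrf2 targets had a median of -0.14 over 13 genes, with 1 of 13 not overlapping lower and 3 of 13 higher (8.00% and 7.09% over all genes). Sqstm1, an autophagy adaptor that binds the Nrf2 inhibitor Keap1, read 10.83, 9.66 and 9.29 on control and 13.02, 7.65 and 7.94 on injured arrays. It was above all controls on injured replicate 1 and below all of them on the other injured arrays, which left a group difference of -0.39 (SE 1.52). Akr1b1, aldose reductase, differed by -2.16 (SE 0.67), with every injured array below the controls.

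Sources of superoxide and peroxide had a median of -0.07 over 12 genes, with 3 of 12 not overlapping lower and 0 of 12 higher (8.00% and 7.09% over all genes). Xdh, xanthine oxidoreductase, differed by -1.96 (SE 1.30) and was at 12.68 on injured replicate 1, above its 11.06 to 12.18 on control arrays. Maoa, a monoamine oxidase of mitochondria that releases hydrogen peroxide, read 11.87, 12.61 and 11.37 on control and 10.85, 7.32 and 7.66 on injured arrays.

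In the list of copper and selenium supply and methionine repair all 11 differences were below 0, with a median of -0.77 and 5 of 11 genes not overlapping lower (8.00% over all genes). The 5 were Atox1, Atp7a, Selenop, Selenow and Selenof. Ccs, which feeds Sod1 with copper, differed by -0.13. Sephs2 and Secisbp2, which serve the use of selenium, differed by -0.09 and -0.18. The groups overlapped for Ccs, Sephs2 and Secisbp2. The 2 brightest genes of the list, Msrb3 and Msrb1, which repair oxidised methionine, differed by -1.14 (SE 0.56) and -0.77 (SE 0.75). Injured replicate 1 had a list median of -0.14 from the control mean, and the other injured arrays had -0.95 and -1.31. On these last arrays only 4 and 5 of the 11 genes were above the median unnamed probe set.

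**Figure D5:**
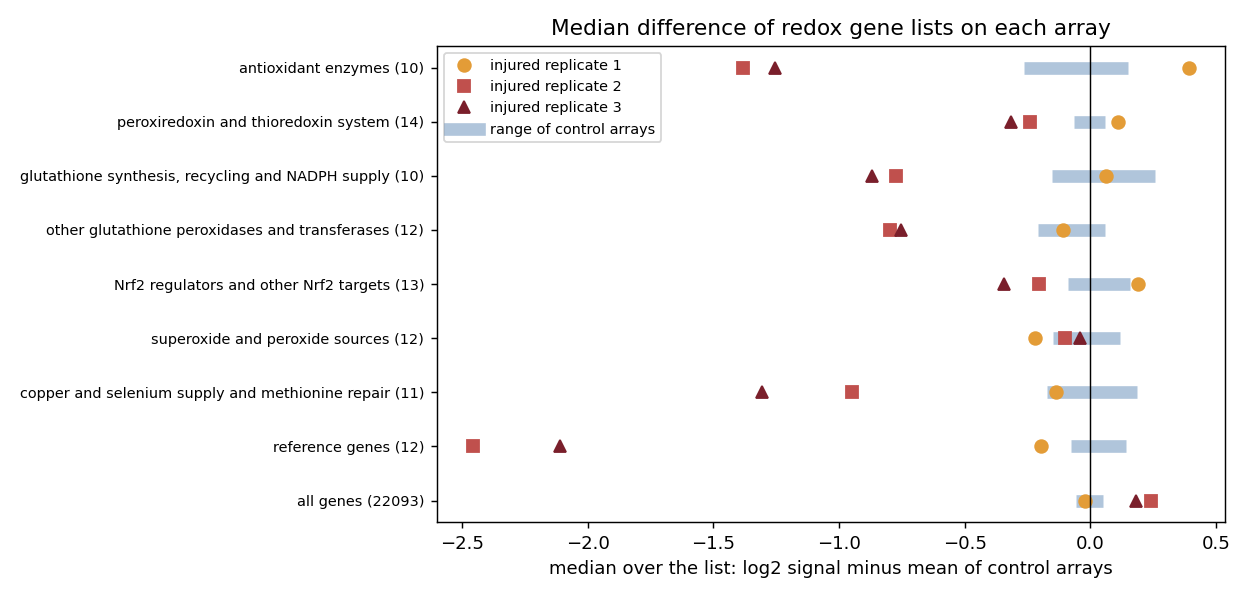
Median over each list of the log2 signal minus the mean of the control arrays (x axis) on the 3 injured arrays, with blue bars for the range of the control arrays and the number of genes in brackets. The 10 antioxidant enzymes are at 0.39, -1.38 and -1.26 on injured replicates 1, 2 and 3, and the reference genes at -0.20, -2.46 and -2.11.

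Marker lists of several cell types differed on the same arrays. The 8 tenocyte markers, which check the tissue label, had median levels of 11.10 to 14.56 on control arrays, where 7 or 8 of 8 were above the median unnamed probe set. On injured replicates 1, 2 and 3 their median was 8.91, 6.38 and 6.40, with 7, 4 and 4 of 8 above it. Of 7 skeletal muscle markers, 2 (Acta1 and Myh4) read the highest value of the scale in every control sample and in injured replicate 1. Their differences are not measured there. Acta1 also read the highest value of injured replicate 3 (19.86), where its difference is not measured either. Elsewhere the differences of these 2 genes are bounds. The other 5 had median differences of 0.25, -7.38 and -6.85 on injured replicates 1, 2 and 3, the 5 endothelial markers of 0.60, -3.44 and -2.92, and the 4 smooth muscle markers of 0.69, -4.51 and -2.43. In these 3 lists, as for Cat, Gpx3 and Sod1, injured replicate 1 was not below the control mean and the others were. The median of the tenocyte markers, at -3.35, -7.20 and -4.84, was lower on all injured arrays, as Gpx1 and Sod3 were. Of the 8 tenocyte markers, 7 had injured arrays all below the control arrays (8.00% over all genes). Scx overlapped, with a difference of -0.06. All 7 muscle markers and all 5 endothelial markers were above the median unnamed probe set on every array. Adipocyte markers, at -1.36, -3.34 and -3.30, and macrophage markers, at -0.47, -0.67 and -0.80, also had medians below the control mean on all injured arrays. Neutrophil markers were at 0.00, 1.92 and 1.13 and erythroid markers at -0.21, 0.29 and 0.37. On injured replicates 2 and 3, only 4 and 3 of the 6 neutrophil markers were above the median unnamed probe set. The olfactory and vomeronasal receptor genes lay 2.11 and 2.03 above the control mean on these arrays. In bulk tissue, fewer cells of a type and less RNA per cell cannot be told apart, and the part of cell makeup in the members' differences was not tested.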

How the data were processed

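Gene expression was measured on 6 arrays, 1 log2 signal per probe set. The submitters' processing notes name Affymetrix Expression Console as the tool with which the authors made the deposited log2 values. The sources used here do not give its version, background correction, summarisation or normalization. That the scale is log2 was taken from the range of the values. Of 68842 probe sets, 23446 name 1 gene, 505 several and 44891 none in the platform annotation. A gene was represented by its probe set of highest mean over the 6 arrays, and 22093 genes were tested; no member had a second probe set or reached the upper end of the scale. Injured and control arrays were compared in limma 3.58.1 under R 4.3.3 (lmFit and eBayes, two-sided, Benjamini-Hochberg over all genes tested), on the deposited values and without a filter on dim genes. P-values measure the spread between these arrays, whose number limits the precision. With 3 arrays in each group, the smallest p of an exact permutation test is 0.1. The script was tested on simulated data.

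The members and lists were chosen with earlier results of these data known. Genes named by rule were all members and the 2 brightest genes of each list. Other genes of these lists were named after their values were seen. The marker and reference lists are given as summaries, with Gapdh, Hprt1, Scx, Acta1, Myh4, Krt1 and Krt10 named besides. Motifs were searched on both strands. Alternatives were quantile normalization, centring on array medians, leaving out dim genes, the mean of probe sets, array quality weights, a block on the replicate number, eBayes with its trend and robust options, the median of unnamed probe sets as a covariate, and each array left out in turn.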

Additional observations from a re-analysis of the deposited data

How the results depend on the processing

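Of 140 repeats of the 10 members' differences (14 alternatives each), 110 kept their direction and their side of the threshold, 15 kept their direction and passed it, and 15 changed direction. Over all genes 0 were called, as in all alternatives except array quality weights (18098 genes, 9 members) and leaving out injured replicate 1; over the arrays left out in turn the counts ran from 0 to 13418 genes and from 0 to 6 members. The weights put most of the fit on injured replicate 3 (29.0) and little on injured replicate 1 (0.053), and their estimation stopped before it converged. Gpx1 (-3.68 to -2.10) and Sod3 (-2.29 to -1.57) were lower in all 14 alternatives.

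With the median of unnamed probe sets as a covariate, a fit that rests mainly on injured replicate 1, the direction turned for Sod1 (0.56), Sod2 (0.05), Cat (0.35), Gpx3 (0.37), Prdx1 (0.23), Prdx6 (0.39) and Nqo1 (0.41), and Txnrd1 was at 1.08 (adjusted p = 0.061). Txnrd1 was at -0.05 after centring. With single arrays left out, Sod2 ran from -0.41 to 0.25, Prdx6 from -0.26 to 0.06 and Nqo1 from -0.54 to 0.078. The median difference of all genes was 0.15 as deposited, -0.28 after quantile normalization and -0.38 after centring; that of the members was -0.87, -1.13 and -1.40.

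The replicate number as a block called 0 members and 0 genes. Same-numbered arrays deviated together with r = 0.48, -0.04 and 0.59, so the numbers were not taken as pairs, and only control replicate 1 correlated best with its own number. Background limits the low values on injured replicates 2 and 3.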

Other observations

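Of the 13 Nrf2 regulators and targets, 7 were above all control arrays on injured replicate 1, 3 were below all of them and 3 were inside their range, with a list median of 0.19 from the control mean. Akr1b1 (-0.72), Cbr1 (-0.81) and Nqo2 (-0.45) were the 3 below, and the member Nqo1 was inside its control range. The share over all genes was not computed, so the count of 7 is not read as particular to this list. In the other lists 5 of 14, 4 of 10, 1 of 12, 1 of 12 and 3 of 11 genes were above all control arrays on injured replicate 1. A few single genes, chosen after their values were seen, were far higher on that array than on the other injured arrays. Sqstm1 was at 3.09, -2.28 and -1.99 on injured replicates 1, 2 and 3, and Bach1, a repressor of Nrf2 targets, at 2.20, -0.03 and -0.27. Gclm, the regulatory subunit of the enzyme that starts glutathione synthesis, was at 2.06, -1.09 and -1.10, and Gsr, glutathione reductase, at 1.51, -1.05 and -1.06. The split was not limited to such genes. The reference gene Hprt1 was at 1.69, -3.24 and -3.06 and Xdh at 1.06, -3.58 and -3.37, while the median reference gene was at -0.20 on injured replicate 1. Injured replicate 1 also had high keratinocyte genes, with Krt1 at 14.04 against 4.97 to 5.31 on control arrays and Krt10 at 10.38 against 5.53 to 5.95. Whether these go together was not tested.

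Hmox1, which breaks down heme and is another Nrf2 target, was the gene of the 72 listed with the largest difference among those above every control array. It read 5.80, 6.17 and 6.10 on control and 7.36, 8.26 and 7.21 on injured replicates 1, 2 and 3, a difference of 1.59 (SE 0.32, limma adjusted p = 0.322). Also chosen after their values were seen, Prdx4, the peroxiredoxin of the endoplasmic reticulum, was 1.76, 2.0 and 2.17 below the control mean on injured replicates 1, 2 and 3, and Maob, a monoamine oxidase, was 1.07, 1.40 and 1.07 below. Selenop, the plasma carrier of selenium, read 10.04, 10.60 and 10.46 on control and 9.12, 5.90 and 6.14 on injured arrays, the last 2 below the median unnamed probe set.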
